A study of Homo sapiens with 16 samples.

Results

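DEPTOR and 9 genes of the mTOR complexes and of the proteins that regulate them were followed in RNA-seq of t(8;21)-positive AML cells treated with siRNA-loaded lipid nanoparticles (LNPs). The 10 genes are DEPTOR, MTOR, RPTOR, RICTOR, MLST8, AKT1S1, TSC1, TSC2, RHEB and SESN2. They were taken by gene name from the 60357 genes listed for each in vitro library, and each name matched 1 row.

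The kinase mTOR works in 2 complexes that share the subunit MLST8. In mTORC1, which promotes protein synthesis and cell growth when amino acids and growth factors are present, the kinase is bound by RPTOR. In mTORC2, which phosphorylates AKT, it is bound by RICTOR. DEPTOR binds the kinase in both complexes and restrains it. TSC1 and TSC2 form a complex that switches off the small GTPase RHEB, the direct activator of mTORC1, and SESN2 holds mTORC1 back when leucine is short. DEPTOR is controlled both by transcription and by protein degradation, and its RNA level alone does not give the activity of the kinase.

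Kasumi-1 and SKNO-1 are lines of human AML cells with a t(8;21) translocation, in which the fusion gene RUNX1/ETO is expressed. The ETO part of the fusion is encoded by RUNX1T1. Cells were exposed to 2 µg/ml LNPs for 24 h and collected on day 3. SKNO-1 was grown with GM-CSF and Kasumi-1 without it. For each line, 3 libraries are labelled siRE-mod, the siRNA directed at the fusion transcript, and 3 are labelled siMM-mod, the mismatch control siRNA. All 12 libraries thus received LNPs, and no untreated library is included here. Nothing in the labels says that replicates came from separate cultures, so p-values measure the spread between these libraries only. In 4 further libraries, of Kasumi-1 cells recovered from RG mice, all 10 genes are listed at a count of 0, as are ACTB and GAPDH, and these libraries were not used.

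The labels and the expression of the libraries did not go together, and this bears on each comparison that follows. Depth on genes was 60559466 to 147990959 counts per library. Markers of myeloid blasts were present in each library, with CD33 at 38.1 to 76.3 and SPI1 at 75.7 to 196 normalised CPM. Of the 12 markers of T, B, erythroid and stromal cells, MS4A1 and COL1A2 were at 0 in all libraries, and the highest was CD79A at 0.905 to 2.90. CD34, a surface marker of immature blood cells, was at 117 to 420 normalised CPM in 6 libraries and at 0.107 to 0.626 in the other 6. Both levels of CD34 hold libraries of both line labels. At each level RUNX1T1 fell into a higher and a lower set of 3 libraries, and here the siRNA label went with the level in part. The CD34-expressing, RUNX1T1-high set holds only libraries labelled siMM-mod and the CD34-silent, RUNX1T1-low set only siRE-mod, while both other sets hold both labels.

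The 4 sets were as follows. With CD34 expressed and RUNX1T1 high (296 to 329 normalised CPM) were the libraries labelled Kasumi-1 siMM-mod replicate 1 and SKNO-1 siMM-mod replicates 1 and 2. With CD34 expressed and RUNX1T1 low (92.7 to 127) were Kasumi-1 siMM-mod replicate 2, SKNO-1 siMM-mod replicate 3 and SKNO-1 siRE-mod replicate 1. With CD34 silent and RUNX1T1 high (159 to 164) were Kasumi-1 siMM-mod replicate 3, Kasumi-1 siRE-mod replicate 2 and SKNO-1 siRE-mod replicate 2. With CD34 silent and RUNX1T1 low (37.2 to 44.3) were Kasumi-1 siRE-mod replicates 1 and 3 and SKNO-1 siRE-mod replicate 3. Because measured values define these sets, they are described by ranges and overlap, with no mean and no test, and no cell line or siRNA is assigned to a set. Normalised CPM are read counts relative to library size after scaling by TMM, which allows for differences in library composition.

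By label, none of the 10 genes passed the threshold of an adjusted p of 0.05 between siRE-mod and siMM-mod with edgeR, and SESN2 passed it in Kasumi-1 with DESeq2. DEPTOR was at 55.0, 20.4 and 130 normalised CPM in replicates 1 to 3 of Kasumi-1 siMM-mod and at 29.6, 127 and 29.9 in those of siRE-mod. In SKNO-1 it was at 52.1, 52.1 and 15.9 with siMM-mod and at 16.1, 125 and 35.4 with siRE-mod. Each labelled group thus spanned several-fold, and the groups overlapped in both lines. The log2 fold change of DEPTOR, siRE-mod over siMM-mod, was −0.13 (SE 0.853, n = 3 and 3, edgeR adjusted p = 0.940) in Kasumi-1 and 0.56 (SE 0.801, n = 3 and 3, edgeR adjusted p = 0.826) in SKNO-1.

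SESN2 was the only member whose labelled groups did not overlap in both lines. In Kasumi-1 it was at 11.5, 9.501 and 10.4 normalised CPM with siMM-mod and at 5.05, 5.15 and 5.45 with siRE-mod, so the groups did not overlap. In SKNO-1 it was at 9.14, 9.83 and 6.24 with siMM-mod and at 5.48, 3.98 and 5.35 with siRE-mod, again without overlap. Its log2 fold change was −0.999 (SE 0.187, edgeR adjusted p = 0.252) in Kasumi-1 and −0.77 (SE 0.320, edgeR adjusted p = 0.466) in SKNO-1, and neither passed 0.05. With DESeq2 the value in Kasumi-1 was −1.02 with an adjusted p of 4.37e-06. Lower without overlap in the same labelled comparison were 11.1% of 15863 genes in Kasumi-1 and 6.01% in SKNO-1. AKT1S1 and TSC1 were higher without overlap in Kasumi-1 (10.4% of genes), with log2 fold changes of 0.27 (SE 0.143) and 0.27 (SE 0.138). No member was higher without overlap in SKNO-1 (5.94% of genes).

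RICTOR had positive and MTOR negative estimates in both lines, with wide errors. For RICTOR the log2 fold change was 0.69 (SE 0.344, edgeR adjusted p = 0.338) in Kasumi-1 and 0.88 (SE 0.304, edgeR adjusted p = 0.466) in SKNO-1. For MTOR it was −0.44 (SE 0.392, edgeR adjusted p = 0.544) and −0.63 (SE 0.353, edgeR adjusted p = 0.530). The size of these values and whether edgeR called them turned on single libraries, while their sign did not change. With 1 library left out, RICTOR in Kasumi-1 lay between 0.49 and 1.19 and MTOR between −0.78 and −0.19. In SKNO-1 RICTOR lay between 0.59 and 1.12 and MTOR between −1.05 and −0.31. Without Kasumi-1 siMM-mod replicate 3, which has CD34 silent while the other 2 of its group express it, edgeR called MTOR (−0.78), RICTOR (1.19) and SESN2 (−1.005) in Kasumi-1, where 32.2% of all genes were then called. Without SKNO-1 siRE-mod replicate 1, which expresses CD34 while the other 2 do not, it called MTOR (−1.05) and RICTOR (1.12) in SKNO-1, with 19.3% of all genes called. In both cases the labelled groups that remained also differed in CD34, and the effect of the siRNA and that difference cannot be told apart.

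Across all genes, edgeR called 0 of 13608 genes in Kasumi-1 (0%), 0 of 13628 in SKNO-1 (0%) and 0 of 15863 for the difference between the lines (0%). At an unadjusted p under 0.05 there were 2435, 1455 and 106 genes, among them SESN2 in Kasumi-1, RICTOR and SESN2 in SKNO-1 and none of the 10 for the difference. DESeq2 called 1163 genes (8.55%), 372 (2.73%) and 127 (0.801%), and of the 10 members it called SESN2 in Kasumi-1.

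**Figure D1:**
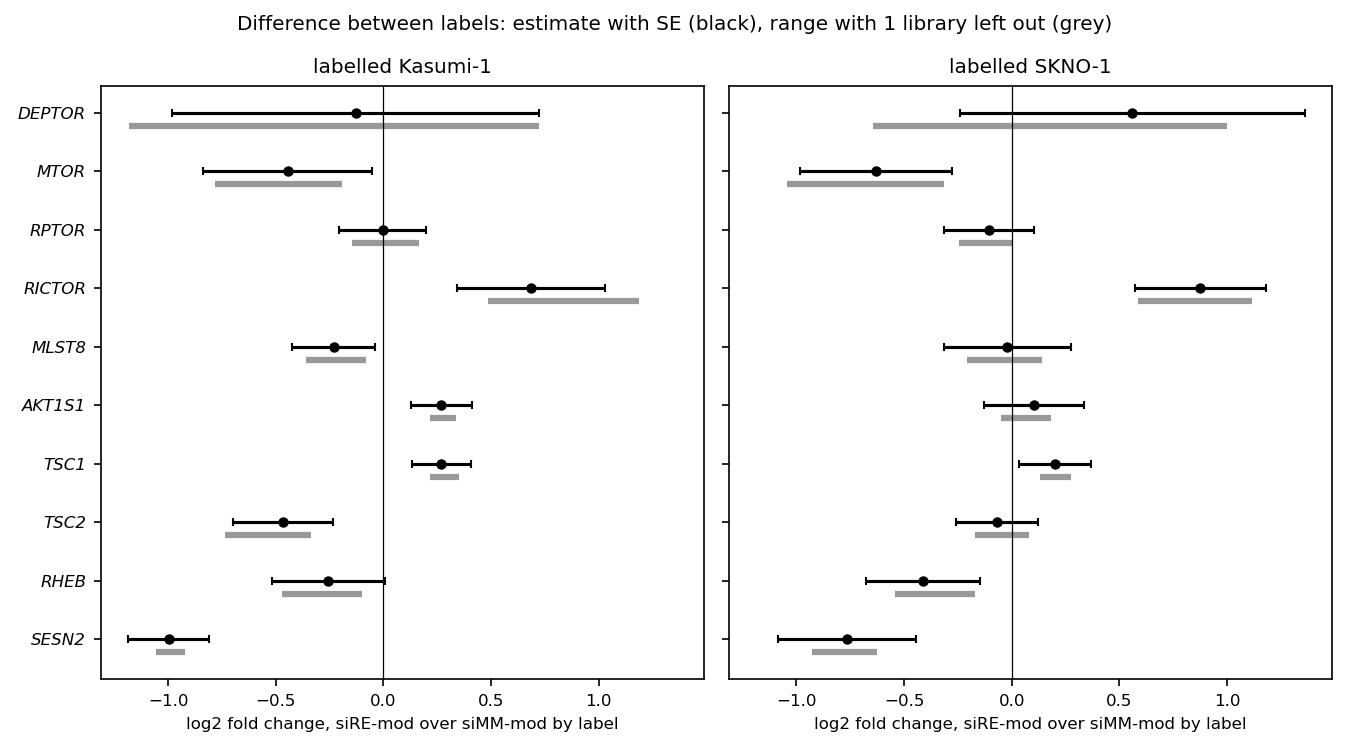
Log2 fold change of each member, siRE-mod over siMM-mod by label, in Kasumi-1 (left) and SKNO-1 (right). Black points with bars are edgeR estimates with SE (n = 3 and 3), and grey bars span the estimates with 1 library left out. With 1 library left out DEPTOR spans −1.18 to 0.72 in the left panel and −0.64 to 1.001 in the right, while SESN2 stays below 0 in both.

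Read by CD34 and then RUNX1T1, DEPTOR took 4 separate levels. With CD34 expressed and RUNX1T1 high it was at 52.1 to 55.0 normalised CPM, and with RUNX1T1 low at 15.9 to 20.4. With CD34 silent it was at 125 to 130 where RUNX1T1 was high and at 29.6 to 35.4 where it was low. No 2 of the 4 sets overlapped, and libraries of both line labels sat side by side inside each. DEPTOR was therefore lower in the RUNX1T1-low set on both sides of the CD34 divide, by 2.56- to 3.45-fold with CD34 expressed and by 3.53- to 4.404-fold with CD34 silent. The smaller number compares the nearest libraries of the sets and the larger the farthest. The share of all genes that take 4 separate levels in this way was not counted. In the 4 comparisons between sets given below, 18% to 32.6% of 15863 genes did not overlap in a given direction. CD34 was not level between the RUNX1T1 sets. In the libraries that express it, CD34 was at 417 to 420 normalised CPM at high RUNX1T1 and at 117 to 153 at low. In the CD34-silent libraries it was at 0.107 to 0.141 and at 0.443 to 0.626. With CD34 silent DEPTOR was higher, by 2.27- to 2.504-fold at high RUNX1T1 and by 1.45- to 2.22-fold at low RUNX1T1. RUNX1T1 was not level in these comparisons either, and was lower with CD34 silent in both. It was at 159 to 164 against 296 to 329 normalised CPM in the high sets. In the low sets it was at 37.2 to 44.3 against 92.7 to 127.

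Being lower in both RUNX1T1-low sets without overlap was shared by 6.88% of the 15863 genes with at least 600 reads, and 5.73% were higher in both. Of the 10 members DEPTOR and RPTOR were lower in both and none was higher. A cut-off on the size of the gap decided whether DEPTOR stayed. A gap of at least 3-fold in both was tried first and held no member, with 0.145% of genes lower and 0.359% higher. A gap of at least 2-fold was put in after that outcome and the values of DEPTOR had been seen, and it held DEPTOR among the lower genes (0.435%) and no member among the higher (0.712%). Both cut-offs are given as descriptions.

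**Figure D2:**
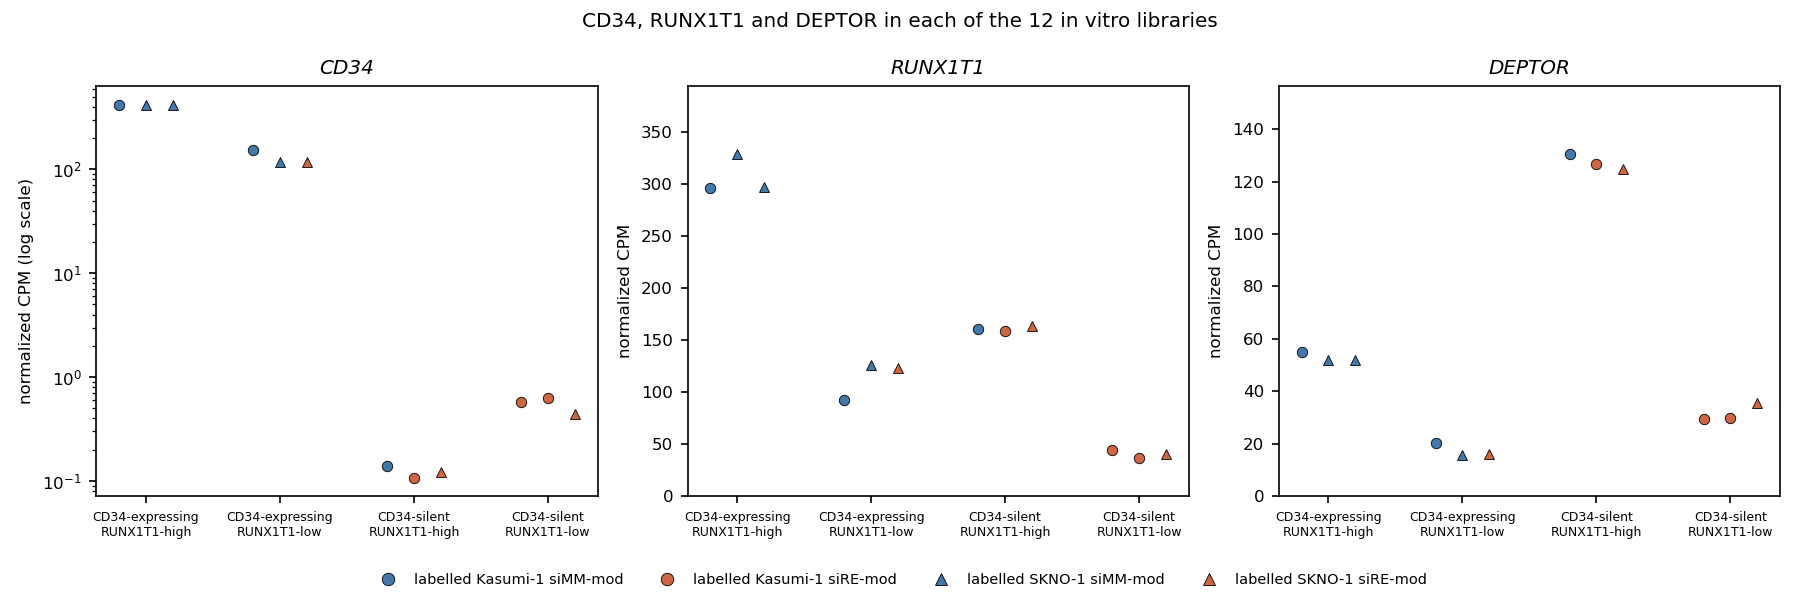
CD34 (log axis), RUNX1T1 and DEPTOR in normalised CPM in each of the 12 in vitro libraries, arranged by the 4 sets that CD34 and RUNX1T1 define. Each point is 1 library, circles are labelled Kasumi-1 and triangles SKNO-1, blue is siMM-mod and orange siRE-mod. DEPTOR is at 125 to 130 where CD34 is silent and RUNX1T1 high, and at 15.9 to 20.4 where CD34 is expressed and RUNX1T1 low.

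DEPTOR had the widest range of the 10 members over the 12 libraries. Its highest value was 8.19 times its lowest, and 3.81% of 11334 genes had a larger ratio. The ratio was 3.29 for MTOR, 3.10 for RICTOR, 2.88 for SESN2, 2.64 for MLST8, 2.29 for RHEB, 1.86 for TSC2, 1.81 for AKT1S1, 1.70 for RPTOR and 1.38 for TSC1, against a median of 2.19 over all genes. TSC1 was thus among the steadier genes, as 95.7% had a larger ratio.

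Per kilobase of exon, the median over 12 libraries was highest for RHEB at 22.9 normalised CPM per kb. The length is that of all annotated exons of a gene merged, which was 19128 bases for TSC2, and not that of the transcripts expressed. The order of genes and the size of ratios between genes therefore depend on the annotation. DEPTOR followed at 16.6, RPTOR at 14.5, MTOR at 13.4 and RICTOR at 10.2. MLST8 was at 4.35, AKT1S1 at 3.57, TSC1 at 2.52, TSC2 at 2.33 and SESN2 at 1.69. The ranges of neighbours in this order overlap over the libraries. On the same per kb scale, DEPTOR per MTOR was 1.13 to 1.22 with CD34 expressed and RUNX1T1 high and 0.392 to 0.452 with RUNX1T1 low. With CD34 silent the ratio was 5.24 to 8.42 and 1.01 to 1.26. These are ratios of RNA levels and not of proteins in a complex.

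The kinase and the 2 subunits that define its complexes differed in pattern. MTOR was at 225, 213 and 197 normalised CPM with CD34 expressed and RUNX1T1 high, and at 208, 187 and 188 with RUNX1T1 low. With CD34 silent it was at 80.0, 111 and 68.5 where RUNX1T1 was high and at 129, 136 and 129 where it was low. All 6 CD34-silent libraries thus lay below all 6 that express CD34, as for 15.6% of genes. RICTOR went the other way, at 77.5 to 112 in the 6 libraries that express CD34 and at 165 to 240 in the 6 others, as for 17.5% of genes.

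Set by set, the CD34-silent libraries at high RUNX1T1 were above the CD34-expressing ones for DEPTOR and RICTOR (31.8% of genes) and below them for MTOR and RHEB (28.8%). At low RUNX1T1 they were above for DEPTOR, RPTOR, RICTOR and AKT1S1 (32.6%) and below for MTOR, TSC2 and SESN2 (28.8%). SESN2 was below by a gap of 1.004-fold, which is within counting error, and overlapped under both other scalings, and TSC1 was higher under both. RUNX1T1 itself was lower in the CD34-silent libraries in both comparisons.

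RPTOR, which recruits the substrates of mTORC1, was at 192, 167 and 154 normalised CPM with CD34 expressed and RUNX1T1 high and at 125, 113 and 115 with RUNX1T1 low. With CD34 silent it was at 160, 184 and 157 and at 145, 145 and 131. The lower level at low RUNX1T1 was by 1.23- to 1.70-fold with CD34 expressed and by 1.08- to 1.41-fold with CD34 silent, and the latter sets overlapped on the deposited CPM. RPTOR per RICTOR, per kb, was 2.30 to 3.16 and 1.33 to 2.11 with CD34 expressed, and 0.859 to 1.22 and 0.917 to 1.15 with CD34 silent.

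Of the remaining subunits and regulators, MLST8 was at 11.3 to 29.8 normalised CPM and overlapped between the RUNX1T1 sets on both sides of the CD34 divide. AKT1S1, which encodes the mTORC1 inhibitor PRAS40, was at 14.9 to 27.0 and overlapped likewise. With CD34 silent, where 21.7% of genes were higher and 21.6% lower without overlap at low RUNX1T1, MTOR, TSC1 and RHEB were higher and DEPTOR, RPTOR and TSC2 lower. TSC2 was at 53.8, 57.8 and 44.7 in that comparison against 34.9, 35.9 and 34.9. RHEB was at 55.7, 56.2 and 44.3 against 71.7, 78.9 and 84.2. With CD34 expressed, where 18% of genes were higher and 20.2% lower, no member was higher and DEPTOR and RPTOR were lower. TSC1 and TSC2 share exonic bases with GFI1B and PKD1 on the opposite strand, and whether counting used the strand is not given in the sources used here.

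**Figure D3:**
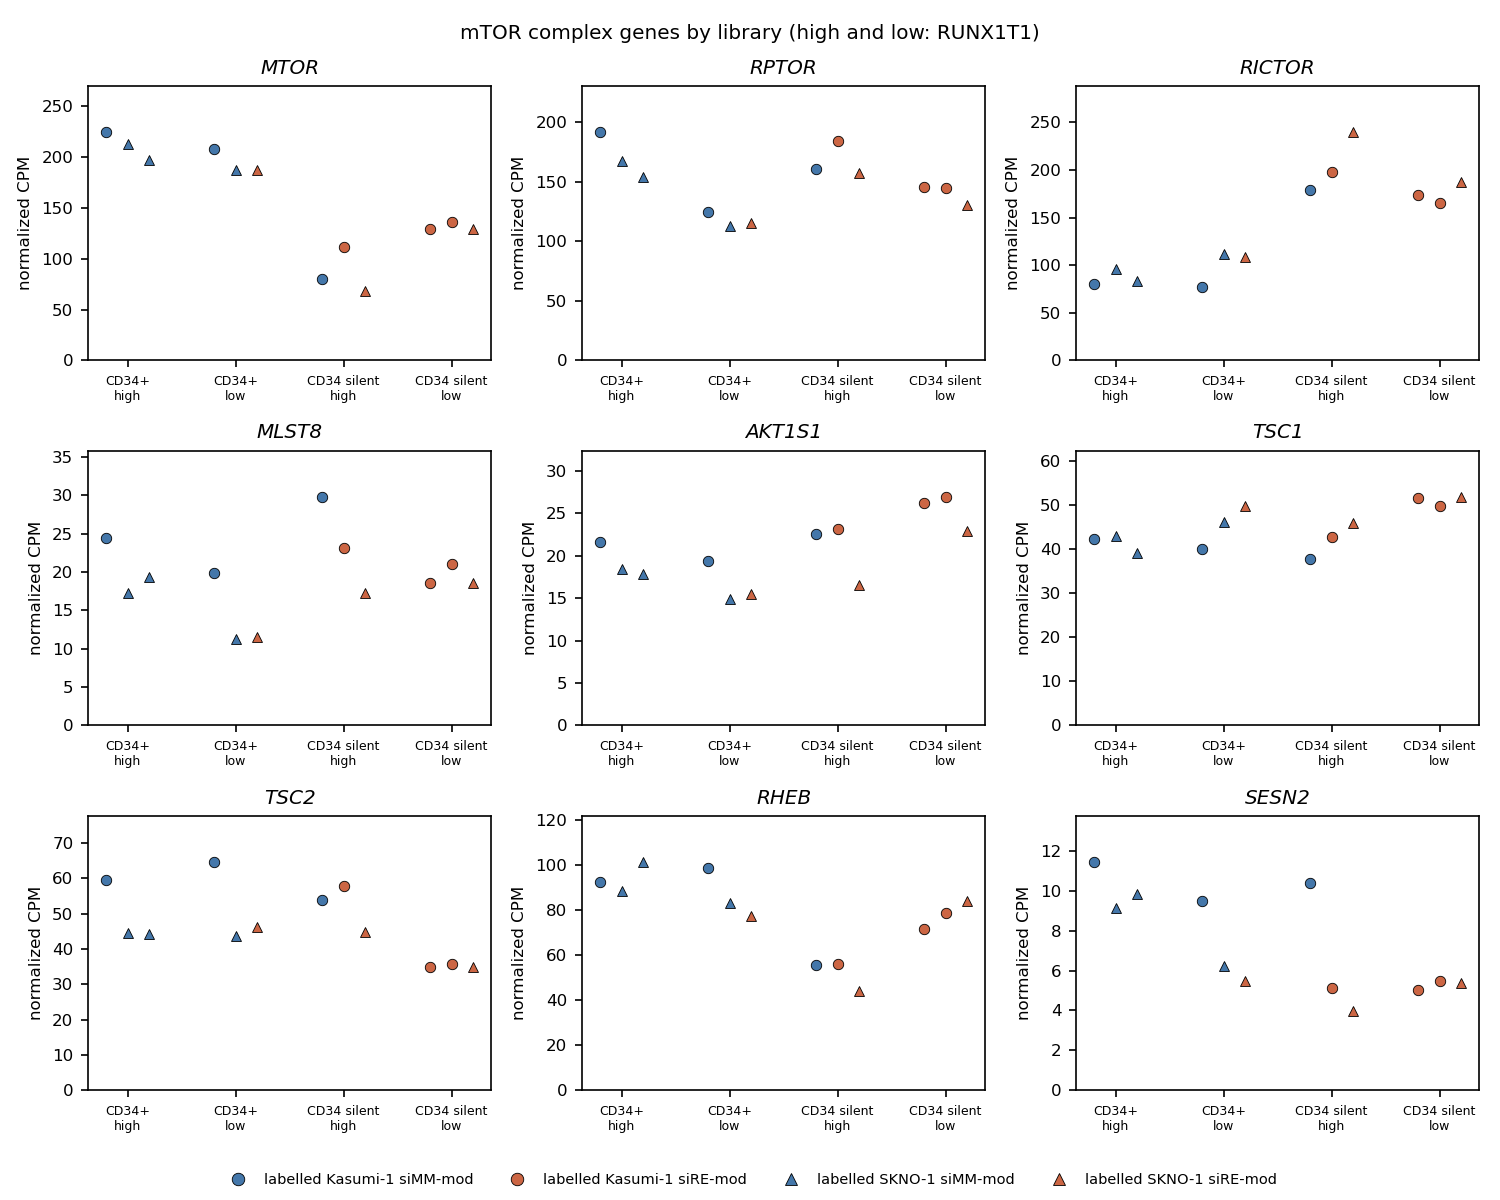
Normalised CPM of the 9 other members in each of the 12 libraries, by the same sets, symbols and colours as for DEPTOR, with axes from 0. In the 6 CD34-silent libraries MTOR is at most 136 and RICTOR at least 165, and the SESN2 values of 9.14 or more come from libraries labelled siMM-mod in 3 of the sets.

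Inside the sets, the line label went with the level of several members, to a degree that depended on the scaling. In all 4 sets the libraries labelled Kasumi-1 lay above those labelled SKNO-1 for MTOR, RPTOR, MLST8, AKT1S1 and TSC2 (7.33% of genes) and below them for RICTOR (6.5% of genes). The smallest gap was 1.002-fold for MTOR, 1.002-fold for TSC2 and 1.004-fold for MLST8, which counting error can give, and these 3 overlapped in 1 set with DESeq2 size factors. On the deposited CPM, MTOR and RPTOR were reversed in 1 set and RICTOR overlapped in 2. AKT1S1 kept the order in all 4 sets under the 3 scalings. DEPTOR was higher in the libraries labelled Kasumi-1 in 3 sets and lower in 1. This comparison was added after the values had been seen, each set has 1 library against 2 or 2 against 1, and its cause was not tested.

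Genes with a pattern like that of DEPTOR were ranked by the root mean square difference of log2 normalised CPM, each gene centred on its mean over the 12 libraries. Nearest among 10350 genes were SCARF1 (0.150), a scavenger receptor, AC091563.1 (0.245), ATP9A (0.263), a phospholipid flippase, COL9A3 (0.279), a collagen chain, and BNIP3 (0.320), a mitochondrial receptor for autophagy. The median difference over all genes was 1.10. SCARF1 was at 4.85 to 5.48 and 1.51 to 2.22 normalised CPM with CD34 expressed, and at 12.2 to 15.5 and 2.87 to 2.88 with CD34 silent, in the order of high and low RUNX1T1. BNIP3 was at 75.0 to 85.5, 37.8 to 46.0, 220 to 345 and 55.8 to 93.8 in the same order.

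DEPTOR lies on chromosome 8 at 119873717 to 120050918 (GRCh38, plus strand), and AC091563.1 begins 1.262 kb downstream of it on the same strand. Of 9 genes within 500 kb with a mean of at least 1 normalised CPM, AC091563.1 and the collagen gene COL14A1 were also lower in both RUNX1T1-low sets. That held for 6.88% of the 15863 genes with at least 600 reads. AC091563.1 was lower by 2.52- to 2.95-fold with CD34 expressed and by 4.003- to 5.96-fold with CD34 silent, and COL14A1 by 2.15- to 3.58-fold and by 4.16- to 7.01-fold, at levels of at most 5.61 normalised CPM. The neighbours TAF2, DSCC1 and MRPL13 were lower with CD34 expressed, as were 20.2% of genes, and overlapped with CD34 silent. MTBP was higher with CD34 silent, as were 21.7% of genes, and overlapped with CD34 expressed, and SNTB1 and AC021945.1 overlapped in both. ENPP2, which is listed at 0 in some libraries, went the other way from DEPTOR with CD34 silent. It was higher there at low RUNX1T1 by 1.86- to 4.16-fold, as were 21.7% of genes, and overlapped with CD34 expressed. DEPTOR itself shares 252 exonic bases (9.59% of its exons) with AP005717.1 on the opposite strand, which had at most 158 counts in a library.

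**Figure D4:**
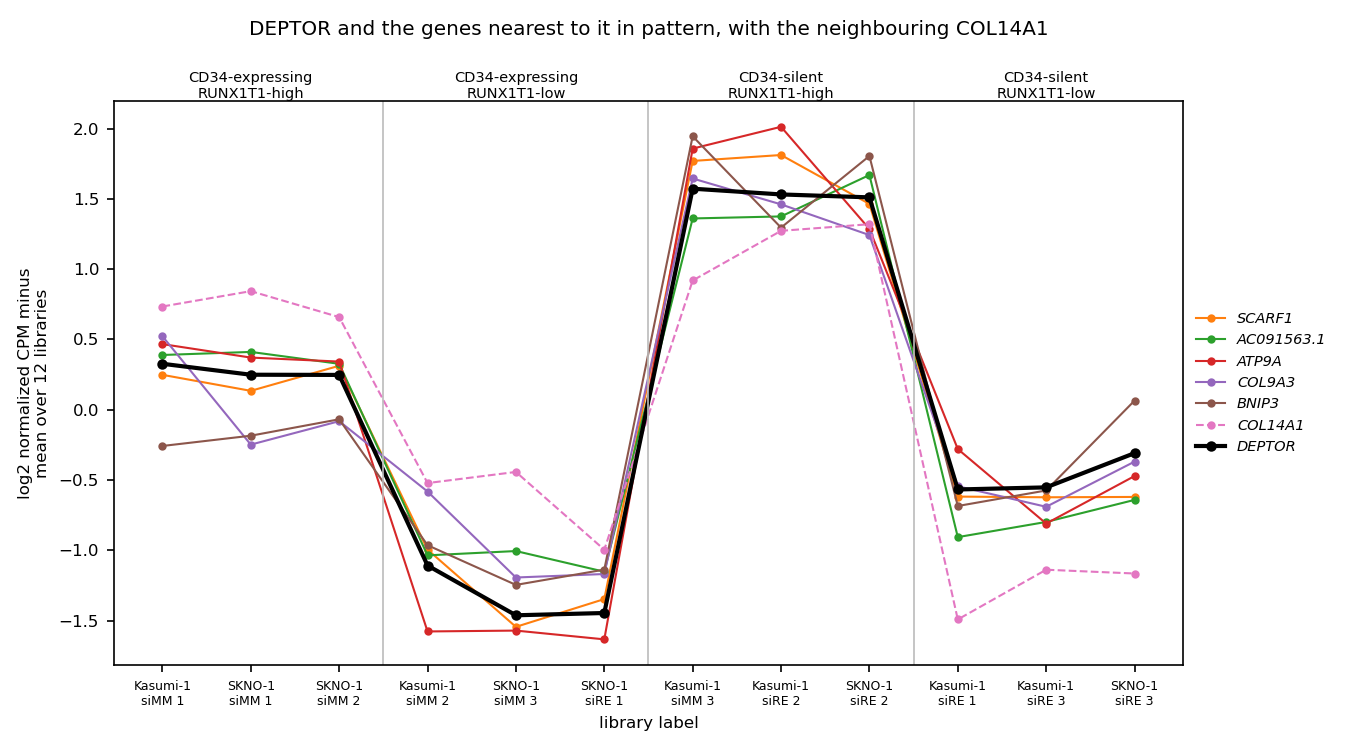
Log2 normalised CPM minus the mean over the 12 libraries for DEPTOR (thick black line), the 5 genes nearest to it in pattern and the neighbouring COL14A1 (dashed), with libraries on the horizontal axis in the order of the 4 sets. Lines join libraries only to guide the eye. All 7 genes are higher in the RUNX1T1-high set than in the RUNX1T1-low set on both sides of the CD34 divide. The 5 nearest genes were chosen for likeness to DEPTOR over these same libraries, so their agreement follows from that choice. COL14A1 is a neighbour named above for the same pattern.

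The promoters of the members were searched for the core letters recognised by RUNX factors, TGTGGT or TGCGGT on either strand, in RefSeq windows of 250 bases before to 50 after the gene start (GRCh38.p14). The table held 7 of the 10 members and 2 of the 5 nearest genes. DEPTOR, MLST8 and AKT1S1 were not in it, so their promoters were not searched. The letters occurred in 19.6% of all 35116 windows and in 1 of the 7 members, SESN2. Of the 2 nearest genes, BNIP3 had the letters and ATP9A did not. A stretch around each match is shown, with the match in capitals, for SESN2 (chr1:28259465-28259494, plus strand) and for BNIP3 (chr10:131982093-131982122 and chr10:131982069-131982098, minus strand), which have the letters. A match is a description of the sequence and not a binding site.
SESN2: cctcccccggggACCGCAgcgggctgaact
BNIP3, first: cgcgtcccgcgcACCGCAggcctctgcccc
BNIP3, second: tgcccctcgcccACCGCAggacccgccccg

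In the wider pathway, 104 of the 108 genes found from 10 lists had at least 600 reads over the 12 libraries. By label, edgeR called 0 of 100 tested in Kasumi-1, 0 of 100 in SKNO-1 and 0 of 104 for the difference between the lines. At an unadjusted p under 0.05 there were 17, 12 and 0 list genes. Among all genes there were 2435 of 13608, 1455 of 13628 and 106 of 15863. DESeq2 called 5 in Kasumi-1, with EIF4G1 higher and NPRL2, EIF4EBP3, EIF4B and PDCD4 lower, and GRB10 as higher in SKNO-1 and for the difference. It called 8.55%, 2.73% and 0.801% of all genes in these 3 comparisons. Read by the sets, 9 of 104 (8.65%) were higher in both RUNX1T1-low sets and 8 (7.69%) lower, against 5.73% and 6.88% of all genes. Higher were FLCN, FNIP2, PIK3CB, PDPK1, ATG13, SGK1, SGK3, DDIT3 and BTRC. Lower were WDR59, PRR5L, PIK3CG, PIK3R1, INPP5D, INPP4B, PSPH and CHAC1. BTRC encodes a ubiquitin ligase subunit that takes part in the degradation of the DEPTOR protein.

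The pathway gene with the widest range was PRR5L, a partner of mTORC2, with a highest value 21.6 times its lowest among 96 genes. PRR5L was at 2.15 to 2.38 normalised CPM with CD34 expressed and RUNX1T1 high, at 1.29 to 1.72 with RUNX1T1 low, and at 24.0 to 27.8 and 5.66 to 6.31 with CD34 silent. It shared with DEPTOR the lower level at low RUNX1T1 on both sides, but its CD34-silent, RUNX1T1-low libraries lay above the CD34-expressing, RUNX1T1-high ones, where those of DEPTOR lay below. SLC7A11 (18.6), a cystine transporter, PIK3R5 (9.04), TRIB3 (8.83), RRAGA (5.88) and VLDLR (5.08) were higher in the 6 CD34-silent libraries without overlap, as were 17.5% of all genes. PDCD4 (4.24) and PRKAG1 (4.18) were lower there, as were 15.6%. These genes were chosen for a wide range over the same libraries, which favours such a separation. DDIT4 (6.53) and INPP4B (5.12) overlapped. GRB10, an mTORC1 substrate singled out after its values had been seen, was at 67.7 to 112 normalised CPM in the 6 CD34-silent libraries and at most 0.01 in the others.

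**Figure D5:**
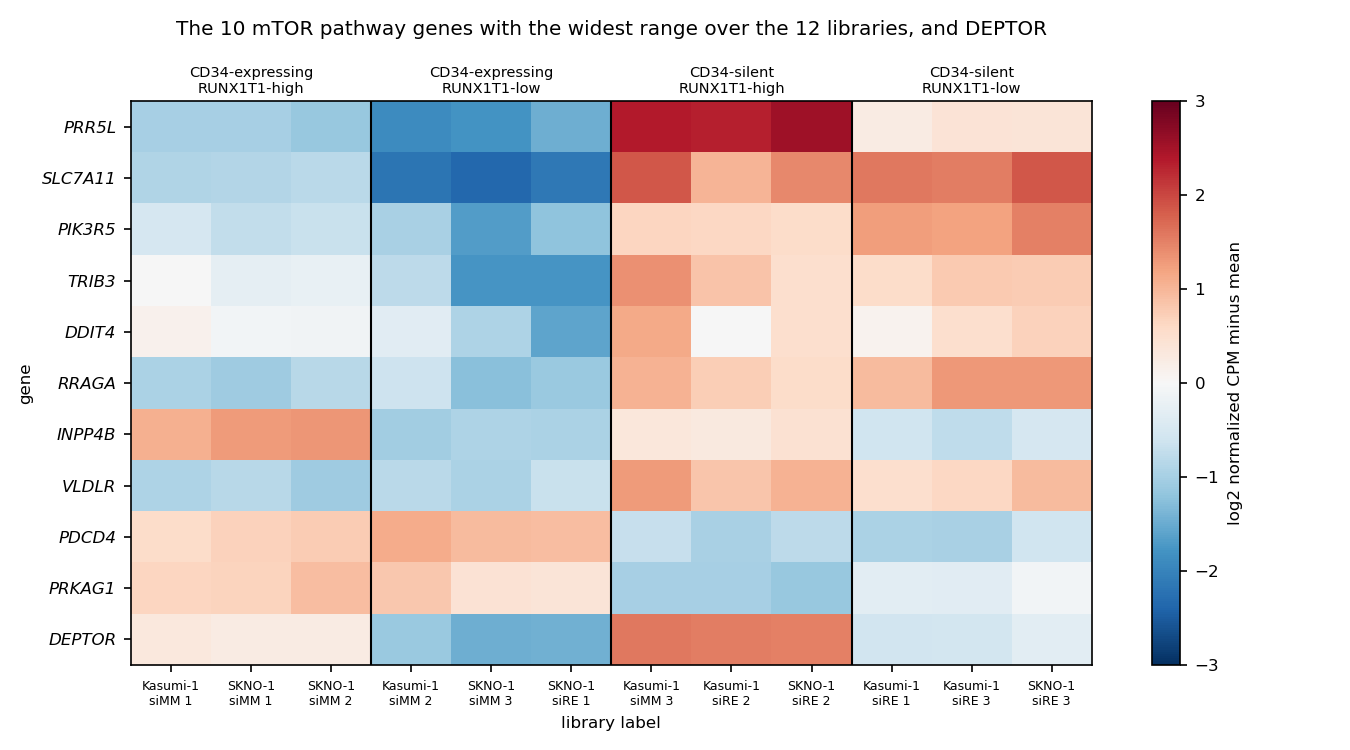
Log2 normalised CPM minus the mean over the 12 libraries for the 10 pathway genes with the widest range and for DEPTOR, by library in the order of the 4 sets. Red is above and blue below the gene's own mean. PRR5L, SLC7A11, PIK3R5, TRIB3, RRAGA and VLDLR are higher in all 6 CD34-silent libraries, and PDCD4 and PRKAG1 lower.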

How the data were processed

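RNA-seq libraries were grouped by the cell line, siRNA and replicate number in their labels. The authors trimmed reads with Trim Galore 0.6.5, aligned them to GRCh38 with STAR 2.7.10a and counted them over exons per gene, per the file headers with Rsubread 1.32.4 under R 3.5.1. The strand setting is not given in the sources used here. The deposited values used are raw counts per gene. The deposited CPM were used as an alternative scaling only, and the FPKM were not used.

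Counts of the 12 in vitro libraries were normalised by TMM. Genes reaching 600 reads over the libraries of a fit were tested with edgeR 4.0.16 (quasi-likelihood, robust) in R 4.3.3, with Benjamini-Hochberg adjustment over all genes and a threshold of 0.05. DESeq2 1.42.0 was an alternative. The fits were tested on simulated data with less spread between libraries than these data have, and without the 4 sets. Common dispersion in the real libraries was 0.197 for Kasumi-1 and 0.246 for SKNO-1. That check therefore does not give the power or the error of the fits here. With 3 libraries against 3 an exact permutation test was not used. Same-numbered libraries did not deviate together from their labelled group means (correlations −0.272 to −0.0132). These deviations include the differences in CD34 and RUNX1T1 inside the labelled groups, so they cannot tell whether the numbers pair the libraries.

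For the description by expression, CD34 was divided at its largest gap on the log2 scale and RUNX1T1 likewise at each level of CD34. The members and lists were chosen with earlier results of these data known. Named genes are the members, CD34, RUNX1T1, the 5 genes nearest to DEPTOR in pattern, genes within 500 kb of it, the 10 pathway-list genes with the widest range, and up to 5 list genes past the threshold by label, of which there were 0. Cut-offs of 2- and 3-fold on the gap between sets in both comparisons, a cut-off of 1.5-fold in single comparisons that is not used here, and the comparison of line labels inside sets, were added after seeing the data. The 3-fold cut-off was run before the 2-fold one. None of the 66 pairs of libraries agreed within sampling noise (squared difference over counting variance, 26.4 to 1338 per gene). Python 3.11.15 was used for tables and figures.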

Additional observations from a re-analysis of the deposited data

How the results depend on the processing

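By label, the count of genes called was 0 in all 3 edgeR fits and stayed 0 with DESeq2 size factors, either other filter on low counts, the replicate block and, for the lines, all 12 libraries in 1 fit. DESeq2 itself called 1163 genes and 1 member in Kasumi-1, 372 genes in SKNO-1 and 127 for the difference between the lines. With 1 library left out, the counts ranged from 0 to 4250 genes and 0 to 3 members in Kasumi-1, and from 0 to 2535 genes and 0 to 2 members in SKNO-1. The highest came without Kasumi-1 siMM-mod replicate 3 and without SKNO-1 siRE-mod replicate 1. The replicate block changed no call, and the log2 fold change of RPTOR in Kasumi-1 reversed to 0.0101 under it. With 1 library left out, log2 fold changes that reversed in Kasumi-1 ranged from −1.18 to 0.72 for DEPTOR and from −0.15 to 0.16 for RPTOR. Those in SKNO-1 ranged from −0.64 to 1.00 for DEPTOR, from −0.25 to 0.0026 for RPTOR, from −0.21 to 0.14 for MLST8, from −0.052 to 0.18 for AKT1S1 and from −0.17 to 0.079 for TSC2. Those for the difference between the lines ranged from −0.50 to 1.76 for DEPTOR, from −0.58 to 0.11 for MTOR, from −0.26 to 0.047 for RPTOR, from −0.34 to 0.46 for RICTOR, from −0.14 to 0.00093 for TSC1 and from −0.33 to 0.0798 for RHEB. The cause was not tested. DEPTOR kept its direction without overlap in the 4 comparisons between sets under each scaling. On the deposited CPM, RPTOR overlapped between the CD34-silent sets, and SESN2, MLST8 and TSC1 changed between overlap and no overlap in 1 or more comparisons. The deposited CPM moved the median of all genes between CD34-silent and CD34-expressing libraries to 0.23 on the log2 scale. Gaps of at least 2-fold and 3-fold, the 2-fold one put in after the 3-fold outcome was known, were chosen after seeing the data and left 69 and 23 of the 1092 genes lower in both RUNX1T1-low sets, and 1 and 0 of 2 members. Depth was at least 369 counts for each member in each library, and the smallest gaps (1.004-fold for SESN2 between sets) cannot be told from counting error.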
